A study of Mus musculus with 33 samples.

Results

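Very long H3K27me3 domains of wild type (WT) mouse embryonic stem cells (mESC) were taken as the deposited WT mESC H3K27me3 domains whose end lay at least 400 kb past their start, and 409 of 8161 domains met this rule. They made up 5.01% of the domains and 29.7% of the covered length, 285 of 960 Mb, and took 10.7% of chromosomes 1 to 19, X and Y. The rule used the positions of this list, so the lengths and the presence of H3K27me3 in WT mESC are given as a description and were not tested.

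H3K27me3 is laid down by Polycomb repressive complex 2 and marks chromatin in which genes are held silent. In stem cells it lies over the promoters of developmental regulators, often together with H3K4me3, a mark of active promoters, in the state called bivalent. In differentiated cells it is also known as broad blankets over silent genes and over gene-poor sequence between them. H3K9me3 marks constitutive heterochromatin, and Uhrf1 is a protein that binds hemimethylated DNA and H3K9me3 and guides Dnmt1, the maintenance DNA methyltransferase, to newly copied DNA.

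The series compared WT and Uhrf1 knockout (KO) E14 cells, a mESC line, by ChIP-seq, in which DNA carrying a mark or protein is recovered with an antibody and sequenced. Undifferentiated mESC and embryoid bodies (EB), aggregates in which stem cells differentiate, at weeks 1, 2 and 3 were used. Of 33 samples, 17 were WT and 16 Uhrf1 KO, and enriched regions were deposited for 25 (18 lists of histone domains, 6 of Oct4, Sox2 or Nanog summits, and 1 of Uhrf1 windows in WT mESC). Both mESC groups were undifferentiated and grown with leukemia inhibitory factor on gelatin or on plates coated with mouse embryonic fibroblasts. The KO cells carried the Uhrf1 knockout at every stage, and whether they were a single clone is not given in the sources used here. The files hold no measure of Uhrf1 itself in KO cells. Each group held 1 library, so the error between replicates of a group is not known and no p-value is given. The 95% intervals cover the spread between domains of 1 library or counting error only, and the read depth behind each list was not known.

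H3K4me3 domains lay within 2 kb of the starts of 7 of 8 pluripotency markers in both WT and KO mESC (Pou5f1, Sox2, Nanog, Zfp42, Tdgf1, Dppa4 and Utf1, with Esrrb without a domain). In WT mESC Pou5f1 and Sox2 also had an H3K27me3 domain within 5 kb, and in KO mESC none of the 7 had one. Of 8 fibroblast markers, 5 had an H3K4me3 domain in WT mESC, each together with H3K27me3, and 4 in KO mESC, where Prrx1, Col1a2 and Thy1 had no H3K27me3 domain within 5 kb. The part of feeder cells in these lists was not tested.

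The sequence at the centre of the longest domains is shown to give a view of what such a domain covers. The windows are 200 bp at the midpoints of the 3 longest domains, from the plus strand of NCBIM37 (mm9), with CG dinucleotides in capitals. They lie at chr11:37721601-37721800, chr8:102624201-102624400 and chr11:91961001-91961200, all outside coding genes, and 672 kb from the start of Odz2, 518 kb from that of Gm3662 and 522 kb from that of Kif2b.
Domain 1 midpoint: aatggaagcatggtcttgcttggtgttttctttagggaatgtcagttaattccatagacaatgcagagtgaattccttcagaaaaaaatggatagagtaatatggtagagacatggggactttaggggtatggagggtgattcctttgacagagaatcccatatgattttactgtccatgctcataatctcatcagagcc
Domain 2 midpoint: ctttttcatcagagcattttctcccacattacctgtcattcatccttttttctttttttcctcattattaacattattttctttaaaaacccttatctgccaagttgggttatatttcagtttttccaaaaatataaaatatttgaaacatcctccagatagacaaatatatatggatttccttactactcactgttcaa
Domain 3 midpoint: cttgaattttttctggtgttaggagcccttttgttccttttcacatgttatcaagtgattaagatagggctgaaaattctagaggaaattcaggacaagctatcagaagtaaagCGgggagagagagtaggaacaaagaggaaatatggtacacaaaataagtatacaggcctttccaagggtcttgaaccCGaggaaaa
Of these, 2 windows held no CG and the other held 2. Over all 409 domains the midpoint window held a median of 1 CG, and 35.2% of windows held none, against 30.5% of the midpoint windows of shorter domains.

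A window from the middle of the longest H3K4me3 domain that lies wholly inside a long H3K27me3 domain is shown beside them, because it is from a Hox cluster. It lies at chr11:96188201-96188400 in an intron of Hoxb3, 3.66 kb from the annotated start, in an H3K4me3 domain of 156 kb.
Hoxb3 intron window: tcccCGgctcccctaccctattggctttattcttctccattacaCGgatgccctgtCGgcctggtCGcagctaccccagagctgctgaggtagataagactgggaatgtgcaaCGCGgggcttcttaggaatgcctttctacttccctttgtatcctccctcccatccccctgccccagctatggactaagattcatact
This window held 6 CG at a GC content of 54.5%, against 40.0%, 29.0% and 39.5% in the midpoint windows.

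Of the 3 tallest WT mESC Oct4 summits in different long domains, 2 are shown with the octamer core TGCAAAT, or its reverse complement, in capitals. They lie at chr11:68207558-68207757, in an intron of Ntn1, the gene of the axon guidance factor netrin 1, and at chr11:112820954-112821153, 178 kb from the start of Sox9 and outside coding genes. Their heights were 147 and 144 reads.
Oct4 summit in Ntn1: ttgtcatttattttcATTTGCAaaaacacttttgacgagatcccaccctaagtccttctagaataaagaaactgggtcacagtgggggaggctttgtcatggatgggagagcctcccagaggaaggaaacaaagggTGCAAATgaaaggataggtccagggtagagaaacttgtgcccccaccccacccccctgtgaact
Oct4 summit near Sox9: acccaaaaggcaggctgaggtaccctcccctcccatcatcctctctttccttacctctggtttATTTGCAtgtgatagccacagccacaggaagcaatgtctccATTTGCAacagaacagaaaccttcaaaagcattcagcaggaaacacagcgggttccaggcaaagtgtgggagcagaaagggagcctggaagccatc
The other of the 3 is not reported here, so these windows do not stand for the tallest summits. Windows with a core were the smaller share. On either strand the core was in 160 of 1096 windows around Oct4 summits inside the long domains (14.6%, Wilson interval 12.6 to 16.8), 15.3% of windows around all WT Oct4 summits, 6.85% of midpoint windows of the long domains (4.78 to 9.72) and 4.52% of those of all WT mESC H3K27me3 domains.

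The long domains were unevenly spread over the chromosomes, and this touches each result below. Chromosome 8 held 57 and chromosome 11 held 45 of them, 24.9% of the long domains and 32.3% of their length on 9.55% of the genome, against 8.59% of shorter domains. They took 41.2% of chromosome 8 and 31.0% of chromosome 11, and between 0.684% and 11.8% of each other autosome, with a median of 8.55%. The X chromosome held 1 and the Y chromosome none. Of the 49 domains of 1 Mb or longer, 25 lay on chromosomes 8 and 11, as did 8 of the 10 longest.

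**Figure D1:**
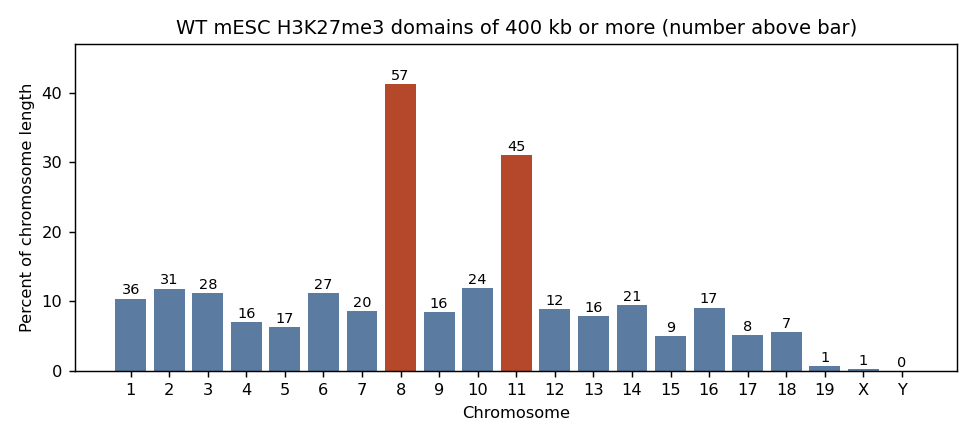
Percent of each chromosome's length (y axis) taken by WT mESC H3K27me3 domains of 400 kb or more, with the number of domains above each bar; bars of chromosomes 8 and 11 are red. Chromosomes 8 (41.2%) and 11 (31.0%) stand above the other autosomes, of which none passed 11.8%.

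These chromosomes stood apart in other lists as well. WT mESC H3K9me3 covered 81.0% of chromosome 8 and 76.2% of chromosome 11, against 16.6% to 46.9% of the other autosomes, and in KO mESC the same mark covered 30.6% of chromosome 8 and 96.3% of chromosome 11, against 14.2% to 58.5%. WT EB week 3 H3K27me3 covered 74.5% of chromosome 8 against 37.9% of chromosome 11 and at most 35.7% of any other autosome. Chromosome X was low in H3K9me3 (2.30% in WT) and above every autosome in Uhrf1 windows (12.8%, against at most 9.32%). The copy number of the chromosomes was not tested, and the inputs were not used here. Coverage, densities and promoter classes are therefore also given for the 306 long domains on the other 17 autosomes, while family counts and most counts of EB domains are for all chromosomes.

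Member lengths ran from 401 to 3854 kb with a median of 558 kb (quartiles 457 and 767), and on the other autosomes the median was 529 kb. The median of the mean read count per 1800 bp bin was 4.57, and 148 of 409 domains exceeded 4.93, the median of the whole list. Just above the limit were domains of 401.4 kb on chromosome 6, 403.2 kb on chromosome 3, 405.0 kb on chromosome 11, and 406.8 kb on chromosome 10 in 2 places. Just below it were 5 of 399.6 kb each, on chromosomes 1, 7, 8 and 10, with 2 of them on chromosome 1. Of these 10 domains, 1 carried KO mESC H3K27me3, over 94.6% of its length, and it lay just below the limit at chr1:74750401-75150000 with 13 coding starts. No edge lay within 10 kb of the next domain, and the median gap to the neighbouring domain was 70.2 kb.

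The longest domain, chr11:35794801-39648600, was 3854 kb long and held the start of 1 coding gene, Odz2, which encodes teneurin 2, a transmembrane protein of neuronal contacts. Odz2 lies inside it over its whole 1229 kb. WT mESC H3K9me3 covered 98.8% of this domain and KO mESC H3K9me3 100%, and no base pair carried KO mESC H3K27me3. H3K27me3 covered 4.90% of it in WT EB at week 1, 100% at week 2 and 59.5% at week 3, and 33.4%, 90.2% and 79.5% in KO EB.

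The longest domain of chromosome 8, chr8:100908001-104340600, was 3433 kb long and held the starts of Cdh8, a cadherin of neuronal adhesion, A330008L17Rik, Gm3662 and Gm17316. H3K27me3 covered 3.01%, 100% and 98.4% of it in WT EB at weeks 1 to 3, and 0.734%, 29.4% and 83.0% in KO EB. The third and the fourth were chr11:90559801-93362400 with Kif2b, a kinesin, and Car10, a carbonic anhydrase-related protein, and chr11:110390401-112941000 with the potassium channel genes Kcnj16 and Kcnj2, Gm11678 and Sox9, which encodes a transcription factor of cartilage and testis. In KO EB at week 3 they were covered to 68.8% and 86.7%, near the 71.9% and 87.8% of WT EB.

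The fifth and the sixth were the longest on the other autosomes. The domain at chr4:63871201-66353400 held Pappa, a protease of insulin-like growth factor binding proteins, Astn2, a gene of neuronal migration whose whole 1024 kb lies inside, and the ubiquitin ligase gene Trim32. The domain at chr12:93529801-95758200 held the start of Gm9726 alone, and coding gene bodies took 0.0306% of it. At week 3 these domains were covered to 78.4% and 30.9% in WT EB and to 33.5% and 16.3% in KO EB, so the WT value was higher in both.

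The remaining 4 of the 10 longest were on chromosome 8. They held Galntl6, a glycosyltransferase gene, with BC030500; Odz3 with 4930555F03Rik; the Iroquois homeobox genes Irx3, Irx5 and Irx6 with Mmp2, a matrix protease, Gnao1, a G protein subunit, and the carboxylesterases Ces1a to Ces1h, 21 starts in all; and Rasd2, Gm10358, 1700007B14Rik and Nr3c2, the mineralocorticoid receptor. H3K27me3 covered 96.7% to 100% of each in WT EB at week 3 and 74.9% to 98.6% in KO EB. Among the 10 longest, the Irx domain was lowest in KO mESC H3K9me3, which covered 3.66% of it, against 94.8% in WT mESC. Such low values were common on chromosome 8, where 14 of 57 long domains had no KO mESC H3K9me3 and the lower quartile was 2.34%. KO mESC H3K27me3 was at 0 in all 10 of the longest domains.

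Across the 10 longest domains there were 44 coding starts. In WT mESC, 22 were bivalent, with an H3K4me3 domain within 2 kb and an H3K27me3 domain within 5 kb, and 22 carried H3K27me3 alone. Of the 22 bivalent starts, 14 had H3K4me3 alone in KO mESC, among them Odz2, Sox9, Kcnj2, Pappa, Astn2, Irx3, Irx5, Mmp2 and Nr3c2, and 8 had neither mark, among them Cdh8, Car10, Irx6 and Gnao1. None of the 22 starts with H3K27me3 alone had either mark in KO mESC. In KO EB at week 3, 19 of the 44 were bivalent and 21 carried H3K27me3 alone, near the 21 and 22 of WT EB.

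The long domains were poor in genes relative to their length. They held 1266 coding starts, 4.45 per Mb (exact Poisson interval 4.20 to 4.70), against 7.88 in shorter domains (7.67 to 8.09) and 8.43 over the genome (8.32 to 8.54), and the intervals did not overlap. Leaving out chromosomes 8, 11, X and Y, the values were 4.55 (4.25 to 4.86), 7.57 (7.36 to 7.80) and 8.42 (8.30 to 8.54). Density fell along the whole range of lengths, from 24.8 coding starts per Mb in domains under 20 kb to 5.08 at 400 to 1000 kb and 2.77 at 1 Mb or more.

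**Figure D2:**
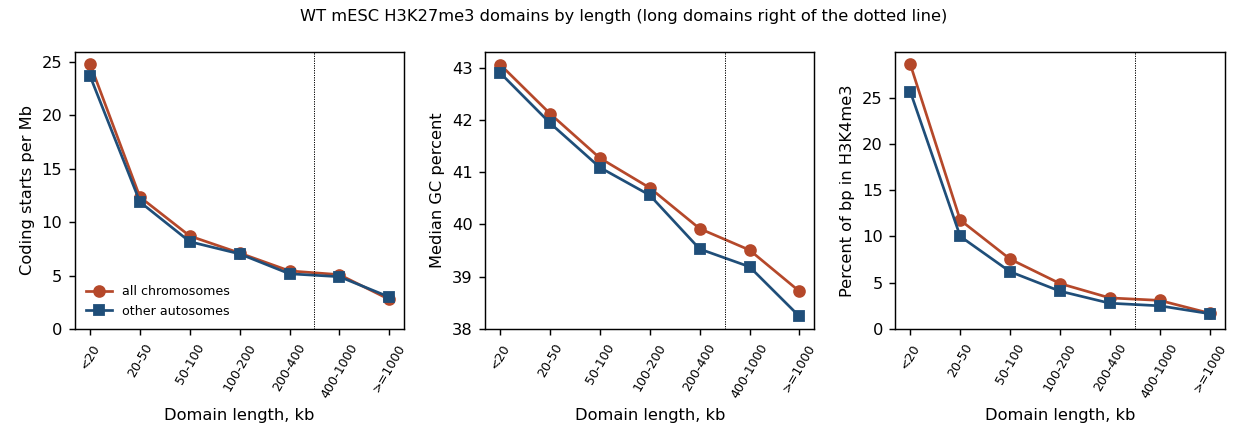
WT mESC H3K27me3 domains by length class in kb (x axes): coding starts per Mb, median GC percent, and percent of base pairs in WT mESC H3K4me3 domains, for all chromosomes (red circles) and the autosomes other than 8 and 11 (blue squares), with the long domains right of the dotted line. All 3 measures are lowest in the longest class, at 2.77 starts per Mb, 38.7% GC and 1.70% of base pairs for all chromosomes.

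Base composition went the same way. Median GC content was 39.4% (order-statistic interval 39.2 to 39.8) against 41.4% (41.3 to 41.6) in shorter domains, and the ratio of observed to expected CpG was 0.159 (0.156 to 0.164) against 0.178 (0.176 to 0.179). For the other autosomes the medians were 39.2% GC and a ratio of 0.158. The GC content of single long domains ran from 35.2% to 47.9%.

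Gene deserts, here domains without any coding exon, made up 84 of 409 long domains (20.5%, Wilson interval 16.9 to 24.7), while 44.2% of all 8161 domains had no coding exon. A count of domains without a gene depends on their length, which is why the densities per Mb stand beside it. On the other autosomes 72 of 306 were deserts (23.5%), against 45.7% of all domains there. Of the 148 long domains whose mean read count exceeded the median of the list, 5.41% were deserts, against 39.2% of shorter domains that exceeded it. None of the 84 overlapped a coding gene body either (40.2% of all domains overlapped none). Further, 111 domains had no coding start (57.0% of all domains), and 32 had no exon of any annotated gene (34.6% of all domains).

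The longest desert was chr17:59614201-61038000, 1424 kb between Nudt12, 461 kb before it, and Efna5, the gene of an ephrin ligand, 1916 kb after it. The next were chr8:99624601-100875600, 673 kb before Cdh8, and chr7:101406601-102609000, between Gm9934 and Gm9966. In these 3 deserts WT EB week 2 H3K27me3 covered 100% of base pairs. At week 3 the values were 33.1%, 98.1% and 56.6% in WT EB and 7.71%, 89.9% and 17.1% in KO EB, with the desert on chromosome 8 highest in both.

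Deserts and gene-bearing long domains differed in the EB lists. WT EB week 2 H3K27me3 covered 95.5% of desert base pairs (ratio-estimator interval 92.9 to 98.0) and 86.4% in long domains with coding exons (84.1 to 88.8). At week 3 the order was the opposite, with 49.4% (43.1 to 55.7) against 69.8% (66.7 to 73.0) in WT EB and 27.2% (21.2 to 33.2) against 50.9% (47.2 to 54.6) in KO EB. Without chromosomes 8 and 11 or the X chromosome, the week 3 values were 43.1% against 61.3% in WT EB and 23.2% against 38.4% in KO EB. KO mESC H3K27me3 covered 0.989% of desert base pairs and 6.79% in the others (4.05 to 9.53). The desert value came from 1 domain of 473 kb on chromosome 5, so no interval is given for it. H3K9me3 in WT mESC, at 77.3% (72.4 to 82.2) and 74.0% (70.8 to 77.2), had overlapping intervals, while on the other autosomes it was 72.6% (67.5 to 77.7) against 60.6% (57.5 to 63.7).

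At the other extreme, the long domain richest in genes was chr11:99095401-99948600, with 72 coding starts of keratins and keratin-associated proteins. It was followed by chr3:92131201-93308400 with 51 starts of the epidermal differentiation complex (Sprr, Lce, Ivl, Flg and others), 2 olfactory receptor clusters with 39 starts on chromosome 10 and 35 on chromosome 11, and the Pcdha, Pcdhb and Pcdhg protocadherin cluster with 29 starts on chromosome 18. Keratins and the epidermal genes build the skin and its appendages, and olfactory receptors are used one per sensory neuron.

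Of 22367 coding genes, 5.66% had their start inside a long domain. Hox genes, the homeobox regulators of body axis identity, had 40 of 40 starts inside (39 symbols, since Hoxa3 is annotated 2 times), with Hoxa10, Hoxa11 and Hoxa13 among them, and all 4 clusters were long domains. Protocadherins, neuronal adhesion proteins, had 28 of 36 starts inside (77.8%, Wilson interval 61.9 to 88.3), such as Pcdh8, Pcdh9, Pcdh19 and Pcdh20. Keratins and keratin-associated proteins had 64 of 100 (64.0%, 54.2 to 72.7), such as Krt1, Krt2, Krt10 and Krt12, and 38 of the 64 were on chromosomes 8 and 11.

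Several neuronal receptor and adhesion families, and the olfactory receptors, also lay over the 5.66% of all coding genes. GABA-A receptor subunits, the channels of inhibitory synapses, had 8 of 18 starts inside (44.4%, 24.6 to 66.3), among them Gabra2, Gabra4 and Gabra6. Contactins and their associated proteins had 5 of 13 (38.5%, 17.7 to 64.5), with Cntn4, Cntn6, Cntnap2 and Cntnap3, and leucine-rich synaptic adhesion proteins had 6 of 31 (19.4%, 9.19 to 36.3), with Flrt2, Flrt3, Lrfn5 and Lrrc4c. Potassium channels had 14 of 96 (14.6%, 8.89 to 23.0), such as Kcna2, Kcna3, Kcna4 and Kcna10. Olfactory receptors had 209 of 1113 (18.8%, 16.6 to 21.2) in 13 domains, and another 451 in shorter domains. Shorter domains also held 44 starts of potassium channels, 6 of GABA-A receptor subunits, 6 of contactins and their associated proteins and 9 of leucine-rich synaptic adhesion proteins. They held 5317 of all 22367 coding starts. Whether the excess of these families is particular to the long domains was not tested.

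Smaller families lay over 5.66% with wide intervals: teneurins and latrophilins had 2 of 7 starts inside (Odz2 and Odz3; lower bound 8.22%), Pax genes 3 of 9 (Pax1, Pax3 and Pax9; 12.1%), cytochrome P450 genes 12 of 98 (Cyp1b1, Cyp26a1, Cyp26c1 and Cyp2e1 among them; 7.15%) and serpins, protease inhibitors, 8 of 60 (6.91%). In the same order, shorter domains held another 2, 6, 28 and 11 starts.

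For other families the interval held 5.66% or lay below it. Cadherins had 3 of 23 inside (Cdh5, Cdh8 and Cdh11), ionotropic glutamate receptors 3 of 19 (Gria2 and Grin3a among them), axon guidance genes 7 of 64 (Epha1, Epha6, Ntn1 and Ntng1 among them), forkhead genes 4 of 43 (Foxa2, Foxd2, Foxe3 and Foxi1), Sox genes 2 of 19 (Sox9 and Sox14) and vomeronasal receptors 23 of 331. Zfp zinc finger genes had 10 of 371 (2.70%, 1.47 to 4.89) and ribosomal protein genes 1 of 144, the pseudogene-like entry Rpl27a-ps2. None of 52 proteasome, 53 defensin and 21 UDP-glucuronosyltransferase genes had a start inside. Genes of a cluster share a domain, so these are not independent counts. Of the 1266 coding starts inside long domains, 386 were on chromosomes 8 and 11. So were 2 of 2 for teneurins and latrophilins, 4 of 8 for GABA-A receptors and 4 of 14 for potassium channels. For Hox genes it was 10 of 40, for olfactory receptors 45 of 209, and for protocadherins, Pax genes and serpins 0.

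Some long genes lay inside the long domains over most of their length. Nrxn3, which encodes the presynaptic protein neurexin 3, had 1403 of its 1612 kb inside long domains, followed by Odz2 (1229 kb), Galntl6 (1134 kb), Lrrc4c (1117 kb), Accn1 (1088 kb), Astn2 (1024 kb), Agbl4 (988 kb), Anks1b (927 kb) and March1 (852 kb). Their starts differed in mESC: Odz2, Galntl6, Astn2, Anks1b and March1 were bivalent in WT mESC, and Nrxn3, Lrrc4c, Accn1 and Agbl4 carried H3K27me3 alone. Accn1, an acid-sensing ion channel gene, was the only gene of these that carried H3K27me3 alone in all 8 combinations of genotype and stage.

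H3K9me3 was compared to ask how far the long domains share sequence with constitutive heterochromatin. In WT mESC it covered 74.5% of their base pairs (71.7 to 77.3), against 55.4% in shorter domains (54.3 to 56.5) and 23.7% outside H3K27me3 domains. The other autosomes had 63.1% (60.4 to 65.8), 52.7% (51.6 to 53.8) and 24.2% respectively, so the difference between long and shorter domains was 10.4 points (7.43 to 13.3) there and 19.1 points (16.1 to 22.1) in all. At least 50% of base pairs were covered in 322 of 409 long domains, where 50.7% of all domains passed this limit, and in 220 of the 306 on the other autosomes, where 48.1% of all domains passed. Complete coverage was found in 82 long domains, where 25.9% of all domains were covered completely, and of the 82, 16 were outside chromosomes 8 and 11, among them the olfactory receptor cluster with Olfr786 to Olfr827 on chromosome 10.

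In KO mESC H3K9me3 covered 61.7% of long domain base pairs (57.6 to 65.9), against 50.2% in shorter domains (48.9 to 51.6). The largest change from WT was on chromosome 8, where coverage was 99.0% in WT and 39.7% in KO, with the WT value higher in 53 of 57 domains. On chromosome 11 it was 98.4% and 100%, and on the other autosomes 63.1% and 60.6%. No interval was computed for the change between WT and KO over the same domains. Of the base pairs with H3K9me3 in WT on the other autosomes, 75.3% carried it in KO. There the WT value was higher in 155 domains and the KO value in 137 of 306. In KO mESC, 250 long domains were covered to at least 50%, where 46.6% of all domains were, and 186 on the other autosomes, where 45.6% were.

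Uhrf1 windows of 10 kb covered 4.83% of long domain base pairs in WT mESC (4.44 to 5.22), against 5.83% of shorter domains (5.60 to 6.05), a difference of -0.993 points (-1.44 to -0.542), and 5.14% of the genome. The values of the other autosomes were 5.23%, 6.04% and 4.83%, and the interval of the long domains there (4.77 to 5.68) held the value of the genome. Their interval over all chromosomes (4.44 to 5.22) held the value of the genome too, 5.14%. By value alone the long domains were below the genome over all chromosomes. They were above it on the other autosomes and without the sex chromosomes (4.84% against 4.63%). The highest shares were 22.1% in a domain on chromosome 10 with Olfr1357 and Casp14, 21.9% in one on chromosome 5 with Bod1l, 21.4% in another on chromosome 5 with vomeronasal receptors Vmn2r8 to Vmn2r14, 20.2% in one on chromosome 6 with Igkv1-115, and 19.6% in one on chromosome 17 with the H2-M genes. At least 10% was covered in 43 long domains, where 19.1% of all domains passed this limit, and 52 held no window.

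**Figure D3:**
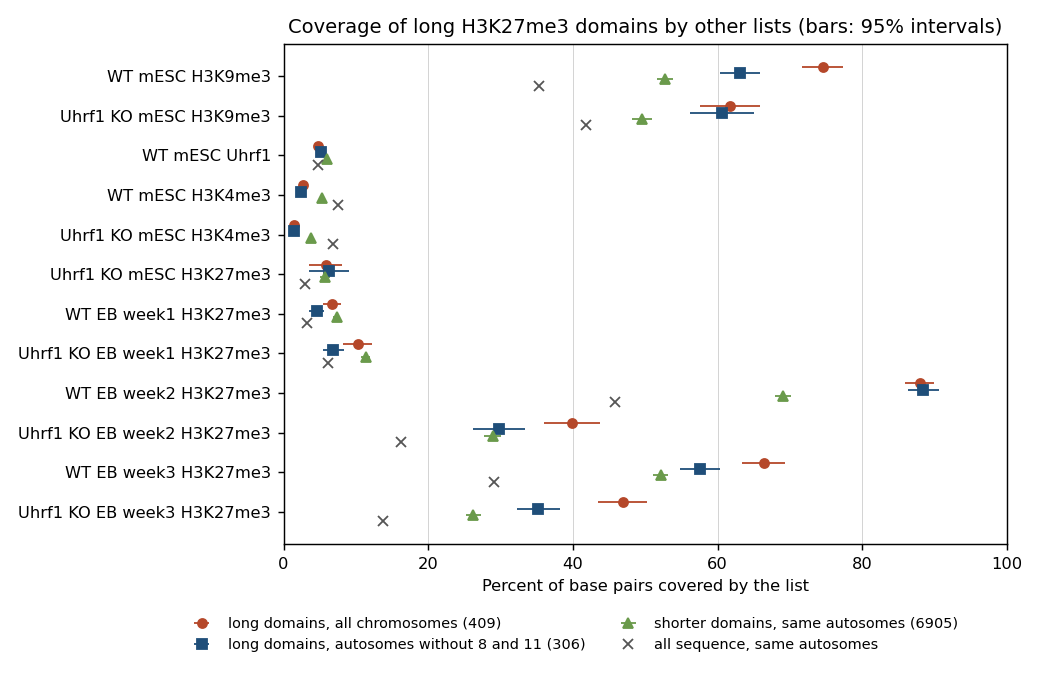
Percent of base pairs (x axis) covered by each of 12 lists (y axis) in the 409 long domains (red circles), the 306 on the autosomes other than 8 and 11 (blue squares), the shorter domains of those autosomes (green triangles) and all sequence of those autosomes (crosses), with ratio-estimator 95% intervals as bars. WT EB week 2 H3K27me3 is highest, at 87.9% of all long domains, and KO mESC H3K27me3 covers 5.82%.

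In KO mESC few base pairs of the long domains lay in H3K27me3 domains. The whole KO mESC list was small, with 722 H3K27me3 domains against 8161 in WT mESC, and covered 3.17% of the genome. The part of read depth in this was not tested. KO H3K27me3 domains covered 5.82% of long domain base pairs (3.51 to 8.12), against 6.62% in shorter domains (5.90 to 7.33), a difference within the intervals. For long and shorter domains of the other autosomes the values were 6.33% (3.57 to 9.09) and 5.74% (5.02 to 6.45). The coverage was nearly all or nothing. Of 409 long domains, 376 had no base pair covered, and 25 were covered to at least 50% (7.71% of all domains were), 13 of them completely (4.91% of all domains were). At least 10% was covered in 30 domains (7.33%, Wilson interval 5.19 to 10.3), where 8.11% of all 8161 domains passed this limit, so by number the long domains were near the list as a whole. Of the 148 with a mean count above the list median in WT, 29 passed (19.6%), against 13.7% of the shorter domains above it. By coverage the order was the opposite, with 13.3% (7.99 to 18.6) against 16.7%, a value within that interval. No interval was computed for the shares of domains that passed. The other autosomes held 22 of the 30, where 6.84% of all domains passed, and 20 of the 25, where 6.52% passed.

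The KO domains that did lie there were long but of low signal. They had a median length of 555 kb, against 37.5 kb for KO domains elsewhere, and a median mean count of 0.568 per 1500 bp bin, against 0.947 elsewhere. They were picked by overlap with domains of at least 400 kb, which favours long KO domains in advance. The difference in length is therefore a description only. The part of domain length in the mean counts was not tested. Over the 25 long domains covered to at least 50%, the highest mean count of a KO domain was at least 1 in 7, and it ranged from 0.00337 over Hs3st3b1 to 9.40 over the Hoxb cluster. The bins differ from the WT list and the scaling of these counts is not given in the sources used here, so WT and KO counts were not compared as levels.

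By the rule of highest share, the domains with Pax3 and Sgpp2 on chromosome 1, Hs3st3b1, a heparan sulfate sulfotransferase gene, on chromosome 11, Nkx2-1, Nkx2-9 and Pax9 on chromosome 12, Msx2 on chromosome 13, and the H2-M10 genes of the major histocompatibility complex on chromosome 17 were covered to 100%. Pax, Nkx2 and Msx genes encode homeobox or paired-domain factors of organ patterning. The others with 100%, named after their values were seen, held Foxd2 and Foxe3, Tbx3 and Tbx5, Barx2, Pparg with Syn2, Igf2 with Ins2, Th and Ascl2, Cdkn1c with Kcnq1 and Phlda2, Cyp26a1 with Cyp26c1, and no coding start in 1 case. Igf2, Ascl2, Kcnq1, Cdkn1c and Phlda2 belong to the imprinted region of distal chromosome 7.

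All 4 Hox clusters were kept. KO H3K27me3 covered 98.1% of the Hoxa domain, chr6:51984001-52502400, 99.7% of the Hoxb domain, chr11:95945401-96611400, 99.3% of the Hoxc domain, chr15:102556801-103015800, and 98.7% of the Hoxd domain, chr2:74406601-75272400. All 40 Hox starts lay within 5 kb of KO H3K27me3, against 169 of all 1266 coding starts inside long domains (13.3%), while of coding starts in any WT mESC H3K27me3 domain 15.3% did. The counts were 24 of 28 for protocadherins, 3 of 3 for Pax, 3 of 4 for forkhead, 3 of 209 for olfactory receptors and 0 of 64 for keratins. The 28 protocadherin starts lay in 5 long domains, most of them in the chromosome 18 cluster, which was covered to 99.7%. Starts of a cluster share a domain, so these counts are not independent.

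H3K4me3 over the Hox clusters was also kept in part. H3K4me3 domains reached 31 of the 40 Hox starts in WT mESC and 19 in KO mESC, and covered 58.2% of the Hoxb and 49.0% of the Hoxc domain in WT against 36.7% and 25.3% in KO. The Hoxb domain held the 10 starts with the longest H3K4me3 domains of all long H3K27me3 domains: Hoxb1 to Hoxb7 and Gm53 in 1 H3K4me3 domain of 156 kb, and Calcoco2 and Ttll6 in another of 168 kb that begins outside the H3K27me3 domain. Ties were cut at 10 by symbol, so further starts of the cluster can share the domain of 156 kb. The 4 clusters were not alike later: in WT EB at week 1 H3K27me3 covered 98.6% of the Hoxb and 99.2% of the Hoxc domain, but 45.2% of the Hoxa and 31.3% of the Hoxd domain, and in KO EB the values were 100%, 99.2%, 49.6% and 57.8%.

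The kept domains differed from the other 384 in features that the share in KO did not use. Those covered to at least 50% held 9.16 coding starts per Mb against 4.15, had a median GC content of 43.8% against 39.3% and a median mean count in WT of 6.79 against 4.50, and 10.6% of their base pairs were in WT mESC H3K4me3 against 2.21%. On the other autosomes the 20 kept domains held 9.34 coding starts per Mb and had 42.8% GC. Of the 10 long domains with a mean count of at least 9 in WT, 8 were kept, and the exceptions were those with Hand2, a factor of heart and limb, on chromosome 8 and Bmi1, a Polycomb protein gene, on chromosome 2. These are descriptions of 25 domains in 1 library each of WT and KO.

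In WT EB at week 1, H3K27me3 covered 6.70% of long domain base pairs (5.50 to 7.90). Week 2 had 87.9% (85.9 to 89.9), the highest of the EB lists, and week 3 had 66.4% (63.4 to 69.3). The other autosomes had 4.58%, 88.5% and 57.6%. At week 1 the WT domains that overlapped them had a median length of 10.5 kb, against 8.75 kb for week 1 domains elsewhere. At least 10% of base pairs were covered in 70 of 409 long domains at week 1, where 25.2% of all domains passed, in 404 at week 2, where 69.2% passed, and in 398 at week 3, where 70.4% passed. At least 50% were covered in 367 at week 2, where 59.4% of all domains passed, and in 268 at week 3, where 50.9% passed. The week 2 share exceeded that of shorter domains by 20.3 points (18.1 to 22.6), and 178 long domains were covered completely, where 40.2% of all domains were.

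At week 3 complete coverage was found in 45 long domains, where 21.5% of all domains had it. The 45, 12 of them outside chromosomes 8 and 11, included those with Hlx on chromosome 1, Hs3st3b1 on chromosome 11, the Hoxc cluster on chromosome 15, Nkx6-1 on chromosome 5 and a desert on chromosome 13. Chromosome 8 was again apart, with 98.7% of long domain base pairs covered against 65.4% on chromosome 11 and 57.6% on the other autosomes. Of the base pairs covered at week 2 on the other autosomes, 58.1% were covered at week 3, and of those covered at week 3, 89.2% had been covered at week 2. These shares were near the 57.6% and 88.5% of all long domain base pairs there.

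In KO EB at week 1, coverage was 10.2% (8.20 to 12.3), 3.54 points above WT (2.15 to 4.92). It reached 39.9% by week 2 (36.1 to 43.7), with a KO minus WT difference of -48.05 points (-52.65 to -43.46). By week 3 it was 46.9% (43.5 to 50.3), with a difference of -19.49 points (-22.03 to -16.95). The WT value was higher in 336 of 409 domains at week 2 and in 336 at week 3, and the KO value in 179 against 154 at week 1. For the other autosomes the differences were 2.29, -58.7 and -22.3 points. Of KO base pairs with H3K27me3 inside long domains, 85.6% carried it in WT at week 2 and 82.1% at week 3, and on the other autosomes 85.6% and 73.7%. Of all long domain base pairs, 87.9% and 66.4% carried it in WT, and on the other autosomes 88.5% and 57.6%. The week 2 overlaps were thus no higher than the share of all base pairs. At least 10% of base pairs were covered in KO EB in 107 long domains at week 1, where 29.0% of all domains passed, in 293 at week 2, where 41.8% passed, and in 345 at week 3, where 38.5% passed. Coverage of at least 50% was found in 130 at week 2, where 29.6% passed, and in 164 at week 3, where 25.5% passed. On the other autosomes the order at week 2 depended on the limit. There 65.4% of long domains passed 10%, against 38.6% of shorter domains, but 22.2% passed 50%, against 27.7%. At week 3, 28.4% of long domains there passed 50%, against 22.6% of shorter domains. The part of domain length in these shares was not tested.

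The chromosomes differed in this comparison. On chromosome 11 KO exceeded WT at week 1 by 20.3 points (14.6 to 26.0), and the differences of 2.07 points (-7.78 to 11.9) and 1.24 points (-4.53 to 7.01) of the later weeks had intervals that held 0. Chromosome 8 had differences of -3.64, -45.6 and -24.0 points. Chromosome 11 was also high over its whole length in KO EB, with 29.9%, 49.0% and 41.3% covered at weeks 1 to 3, against at most 9.93%, 22.0% and 19.3% of any autosome other than 8 and 11. The part of these whole-chromosome values in the long domains was not tested.

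Compared with the shorter domains, the long domains of the other autosomes had less WT EB H3K27me3 at week 1, 4.58% against 7.34%, and more at weeks 2 and 3, 88.5% against 69.0% and 57.6% against 52.2%. In KO EB they had less at week 1, 6.88% against 11.4%, a like share at week 2, 29.8% against 28.9% with a difference of 0.896 points (-2.85 to 4.64), and more at week 3, 35.3% against 26.3% with a difference of 8.99 points (5.82 to 12.2).

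**Figure D4:**
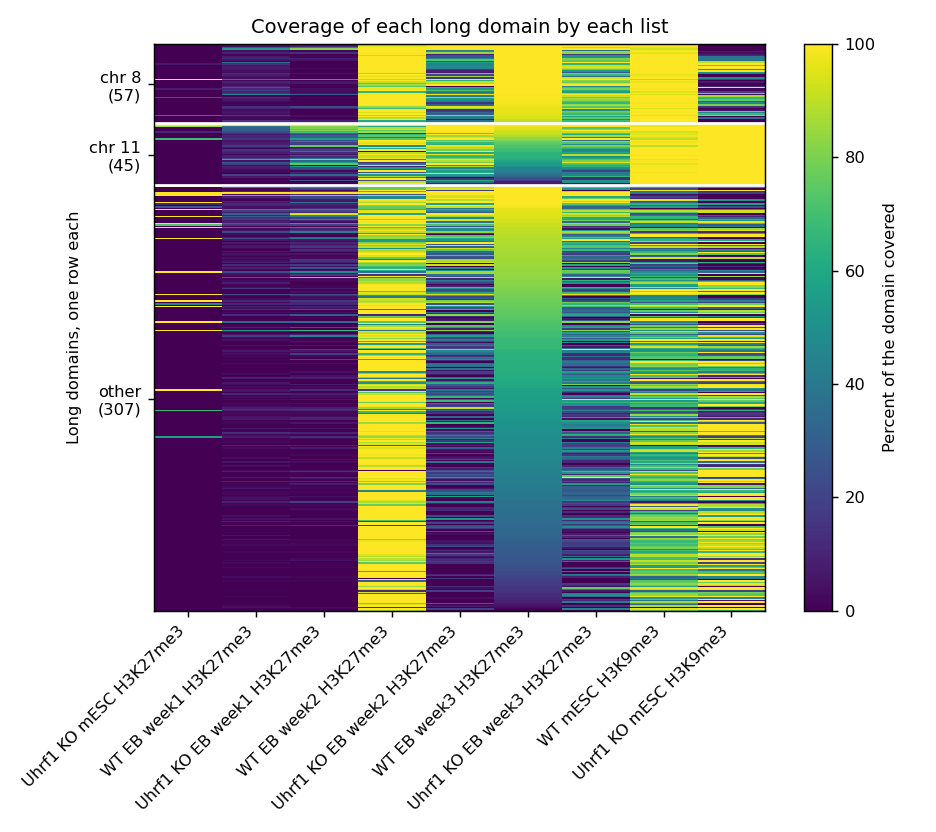
Each row is 1 of the 409 long domains, grouped by chromosome 8 (57), chromosome 11 (45) and all others (307) and ordered by WT EB week 3 coverage, and each column is a list; colour gives the percent of the domain covered, from 0 (dark) to 100 (yellow). The KO mESC H3K27me3 column is dark for the 376 domains at 0, and the WT EB week 2 column is filled nearly throughout.

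Promoters inside the long domains were classed by the same marks. Of 1266 coding starts, 463 (36.6%, Wilson interval 34.0 to 39.3) were bivalent in WT mESC and 803 carried H3K27me3 alone, the H3K27me3 part being set by the rule. For starts in shorter domains the bivalent share was 51.0% (49.7 to 52.4), and of starts in any H3K27me3 domain 48.2% had H3K4me3. In KO mESC 314 of the 1266 (24.8%) had H3K4me3, where 35.3% of starts in any WT mESC H3K27me3 domain did.

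Of the 463 bivalent starts, 246 (53.1%, 48.6 to 57.6) had H3K4me3 alone in KO mESC, 121 (26.1%) neither mark, 58 (12.5%) remained bivalent and 38 (8.21%) had H3K27me3 alone. Of the 803 starts with H3K27me3 alone, 721 (89.8%) had neither mark in KO mESC, 72 H3K27me3 alone and 9 H3K4me3 alone. In shorter domains the shares of bivalent starts were 56.2% (54.3 to 58.1) with H3K4me3 alone, 23.0% with neither mark, 14.1% bivalent and 6.71% with H3K27me3 alone, and 86.1% of starts with H3K27me3 alone (84.7 to 87.3) had neither mark. The long domains were at 89.8% there (87.5 to 91.7), and the intervals of H3K4me3 alone overlapped. For the other autosomes H3K4me3 alone was found at 52.2% of 322 bivalent starts (46.7 to 57.6), against 58.8% in shorter domains (56.7 to 60.8), and neither mark at 89.9% of 553 starts, against 87.1%. Starts with H3K27me3 alone rarely had H3K4me3 in KO mESC, in 10 of 803 cases. All KO mESC classes rest on the small KO H3K27me3 list of 722 domains.

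At week 3, 466 of the 1266 starts were bivalent and 582 carried H3K27me3 alone in WT EB, and 349 of the bivalent starts (74.9%) were bivalent in KO EB as well, 85 having H3K4me3 alone (18.2%). In shorter domains 56.2% of starts bivalent in WT EB were bivalent in KO EB (54.1 to 58.2) and 36.5% had H3K4me3 alone. Bivalent starts of long domains thus had both marks in KO EB more often (70.8 to 78.6, intervals that did not overlap), as on the other autosomes (70.5% against 54.5%). Starts of a cluster share a domain, which none of the intervals for starts allow for. In KO EB 388 of the 1266 starts were bivalent, 456 carried H3K27me3 alone and 136 H3K4me3 alone, the last against 62 in WT EB. These last are 10.7% and 4.90%, while in shorter domains H3K4me3 alone was at 28.2% of starts in KO and 13.7% in WT EB. The number with an H3K4me3 domain was 528 in WT and 524 in KO EB at week 3, where 53.7% and 53.0% of starts in any WT mESC H3K27me3 domain had one. H3K27me3 was near 1048 starts in WT (82.8%) and 844 in KO EB (66.7%), where 73.7% and 49.9% of starts in any WT mESC H3K27me3 domain had it. The other autosomes had 80.1% and 59.1%.

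H3K4me3 domains covered 2.71% of long domain base pairs in WT mESC (2.22 to 3.20) and 1.51% in KO mESC (1.19 to 1.82), against 8.14% and 7.10% of the genome. The other autosomes had 2.35% and 1.46%. No H3K4me3 domain was present in WT mESC in 115 of 409 long domains, where 54.5% of all domains had none, and 62 of these were deserts.

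Summits of the 3 transcription factors were sparser inside the long domains than over the genome. Oct4, a POU factor that maintains pluripotency, had 1096 summits in WT mESC, 3.85 per Mb (exact Poisson interval 3.62 to 4.08), against 4.28 in shorter domains and 4.78 over the genome. Sox2 and Nanog, its partners, had 1.22 (1.09 to 1.35) and 0.632 per Mb (0.543 to 0.732) against 1.93 and 0.873 over the genome. The order against the genome turned round in the 148 long domains with a mean count above the list median, at 5.16, 2.12 and 0.998 summits per Mb of Oct4, Sox2 and Nanog (intervals overlapping those of the genome), which stayed below the 6.62, 3.74 and 1.81 of shorter domains above that median. In KO mESC Oct4 had 19 summits in long domains, 0.0667 per Mb (0.0402 to 0.104), while Sox2 had 3.68 (3.46 to 3.91) and Nanog 2.32 (2.14 to 2.50). The genome-wide values in KO were 0.184, 7.79 and 3.98, so over all long domains Sox2 and Nanog summits were more and Oct4 summits fewer than in WT both inside and outside. On the other autosomes Oct4 had 3.44 summits per Mb of long domain in WT and 0.0624 in KO mESC.

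The edges of the long domains were compared with the other lists on the other autosomes, over 612 edges. WT mESC H3K9me3 covered 56.9% of base pairs in the last 25 kb inside and 38.5% in the next 25 kb outside. WT EB H3K27me3 stepped from 79.2% to 67.0% at week 2 and from 51.1% to 34.9% at week 3, and KO EB H3K27me3 from 22.3% to 13.8% and from 25.8% to 16.5%. KO mESC H3K9me3 hardly changed at the same edges, with 57.1% inside and 54.3% outside. Coding exons took 1.38% of the last 25 kb inside and 2.28% of the next 25 kb outside.

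**Figure D5:**
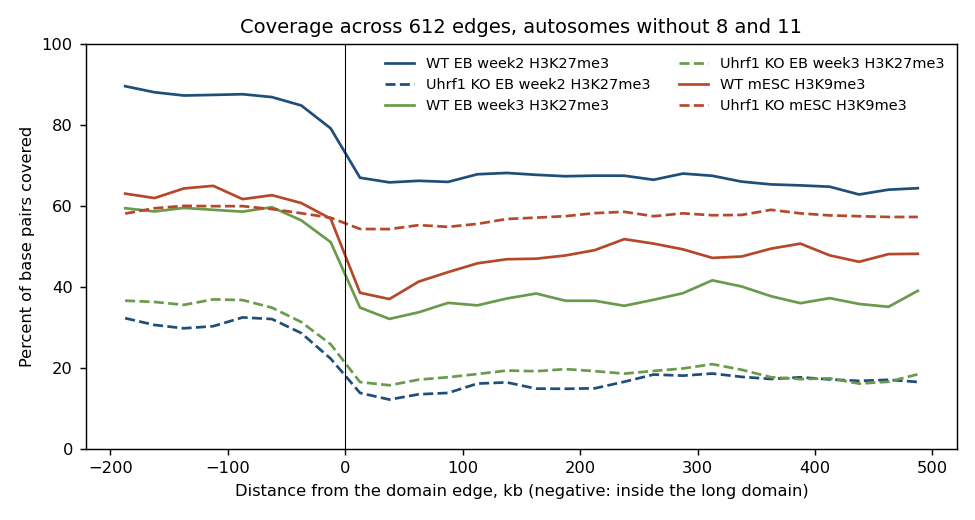
Percent of base pairs covered (y axis) by 6 lists at distances from the edges of long domains in 25 kb steps (x axis, kb, negative inside), over 612 edges on the autosomes other than 8 and 11. WT H3K9me3 and all 4 EB H3K27me3 curves step down at the edge, from 56.9% to 38.5% for WT H3K9me3, and the KO mESC H3K9me3 curve is near level.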

How the data were processed

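ChIP-seq enriched regions of 25 samples were used, 1 library per group, and 8 input samples were not analysed here. The authors mapped reads to mm9 with Bowtie2 2.1.0 and called histone domains against input with RSEG, factor summits with MACS and Uhrf1 windows of 10 kb. The deposited histone lists give each domain's position, a score and a signal, the mean read count in a bin, and the deposited summit lists a signal (height in reads). Whether these signals were scaled to depth, and the total reads, are not given in the sources used here. The members, families and lists were chosen with earlier results of these data known.

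Domains of at least 400 kb were taken, and base pairs shared with each list were counted over all of them. Coverage has a ratio-estimator 95% interval over domains, shares a Wilson interval, densities an exact Poisson interval and medians an order-statistic interval, all covering counting error or spread between domains only. Genes and sequence came from the GENCODE annotation and genome of NCBIM37. A promoter had H3K4me3 within 2 kb and H3K27me3 within 5 kb of a coding start. Named were the 10 longest domains and their genes, the 5 domains highest in each measure, the 10 genes with most length inside or the longest H3K4me3 domain, and the first 4 symbols of each family. Some genes and 1 sequence that these rules chose are not reported here. Scripts used Python 3.11, numpy 2.4.6, pandas 2.3.3, scipy 1.17.1, pysam 0.24.0 and matplotlib 3.10.9 and were tested on simulated data. Alternatives were a limit of 300 or 500 kb, stronger domains or summits only, other definitions of a desert, no sex chromosomes and, chosen after seeing the data, the autosomes other than 8 and 11.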

Additional observations from a re-analysis of the deposited data

Results flagged for a closer look

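The difference in H3K27me3 coverage of the long domains between KO and WT EB had opposite directions at different weeks. At weeks 1, 2 and 3, KO minus WT was 3.54, -48.05 and -19.49 percentage points over all chromosomes, and 2.29, -58.68 and -22.33 points on the autosomes other than 8 and 11. Shorter domains on those autosomes went the same way, with 7.34%, 69.0% and 52.2% in WT EB and 11.4%, 28.9% and 26.3% in KO EB, as did the whole genome, with 3.81%, 43.9% and 29.8% against 6.78%, 17.6% and 15.8%, so the pattern is not particular to the long domains. The difference between weeks was not tested, since each group held 1 library.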

How the results depend on the processing

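No paired analysis was possible because each group held 1 library. Of 132 alternative values, 82 stayed within the interval of the reported value, or within 1.5 times a count, and 50 moved. Set against shorter domains, the order turned round in 3 of 127 values, all of KO mESC H3K27me3: the share of domains covered to at least 10% among those with a mean count above the list median (19.59% against 13.73%) and, on the autosomes other than 8 and 11, that share (7.190% against 6.821%) and the coverage (6.326% against 5.737%). Set against the genome it turned in 5 of 112: WT Oct4, Sox2 and Nanog summits in long domains with a mean count above the list median (5.164, 2.120 and 0.9981 against 4.782, 1.934 and 0.8727 per Mb), and Uhrf1 without the sex chromosomes (4.837% against 4.629%) and on the autosomes other than 8 and 11 (5.226% against 4.831%). Leaving out the sex chromosomes moved none. On the autosomes other than 8 and 11 the values that moved were GC content (39.16%), coverage by WT H3K9me3 (63.09%), Uhrf1 (5.226%), WT EB H3K27me3 at weeks 1 (4.585%) and 3 (57.58%) and KO EB H3K27me3 at weeks 1 to 3 (6.876%, 29.79% and 35.25%), and summits per Mb of WT Oct4 (3.438), WT Sox2 (0.8841), KO Sox2 (3.261) and KO Nanog (1.976). With only the 148 domains whose mean count passed the list median, 5.405% had no coding exon, coding starts per Mb were 5.659 and GC content 40.85%. Their coverage was 80.01% by WT H3K9me3, 4.255% by Uhrf1, 13.28% by KO mESC H3K27me3, 12.60%, 85.94% and 80.67% by WT EB H3K27me3 at weeks 1 to 3, 18.94%, 60.31% and 65.17% in KO EB, and 4.650% and 2.605% by WT and KO mESC H3K4me3. Their summits per Mb were 5.164, 2.120 and 0.9981 for WT Oct4, Sox2 and Nanog and 0.1320, 5.873 and 3.514 in KO. With a limit of 300 kb, WT H3K9me3 covered 71.73% and KO EB week 3 H3K27me3 43.47%, and 46 domains were covered to at least 10% in KO mESC. With 500 kb, 16.22% had no coding exon, coding starts per Mb were 4.049, WT H3K9me3 covered 77.70%, WT EB week 2 H3K27me3 90.47%, 16 domains were covered to at least 10% in KO mESC, and KO Nanog had 2.144 summits per Mb. Counting an exon of any gene left 7.824% without one. When the other list was limited to its domains of higher score than its median, WT EB week 3 H3K27me3 covered 63.18%, and WT and KO mESC H3K4me3 1.701% and 0.8660%. With only summits above the median height, WT Oct4, Sox2 and Nanog had 1.605, 0.6286 and 0.3828 and KO Sox2 and Nanog 1.752 and 1.226 per Mb. Fewer domains or summits enter under the stricter settings by construction, and otherwise the cause was not tested. The limits are 1 library per group, unknown read depth, and 102 of 409 domains on chromosomes 8 and 11.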
